A study of Mus musculus with 29 samples.

Results

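Of 110715 genomic regions of 201 bp counted by ATAC-seq in mouse photoreceptors and bipolar cells, 1109 (1.00%) were open only in green cones. A population was taken as open at a region when the region's midpoint lay in a peak of both of its libraries, and as closed when it lay in a peak of neither. The 1109 regions were open in green cones sorted once and closed in blue cones, rods, pan-BCs, ON-BCs and OFF-BCs. The regions were chosen by the measured peak calls of these 12 libraries, so their accessibility in the same libraries is described without a test. Peaks of double-sorted green cones, genomic position, DNA sequence and RNA-seq of the nearest genes did not enter the choice.

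The study compared open chromatin and transcripts between photoreceptors and bipolar cells (BCs) purified by FACS from adult mouse retina. Green cones came from Opn1mw-GFP mice, rods from Nrl-eGFP mice and blue cones from Nrl-eGFP;NrlKO mice, all at postnatal day 56, and these libraries were re-analysed from earlier work. The blue cones are photoreceptors of mice that lack Nrl, the factor that commits photoreceptor precursors to the rod fate, and stand in for native blue cones. Pan-BCs, ON-BCs and OFF-BCs for ATAC-seq came from Otx2-GFP+/-; Grm6-YFP+/+ mice at postnatal days 42 to 46, with OFF-BCs double-sorted and the others sorted once; a supplementary list gives another Grm6-YFP genotype for the pan-BCs. Otx2-GFP puts GFP at one copy of the endogenous Otx2 gene, so all 3 bipolar populations are Otx2-GFP heterozygous. For RNA-seq, pan-BCs came from Otx2-GFP+/- mice at postnatal days 44 to 47, and ON-BCs and OFF-BCs were taken at postnatal days 42 to 48. The paper sorted ON-BCs and OFF-BCs from mice that carried both Otx2-GFP and Grm6-YFP. No RNA-seq library of green cones was analysed here. Cell class therefore cannot be told apart from study, age and genotype when photoreceptors are set beside bipolar cells. Among photoreceptors, green cones differ from blue cones and rods in reporter line, and blue cones differ from both in the loss of Nrl. Photoreceptor type cannot be told apart from these differences either.

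Green cones carry the middle-wavelength opsin Opn1mw, and in the mouse their number and opsin levels depend on the dorsoventral position in the retina. The thyroid hormone receptor encoded by Thrb is required for Opn1mw expression, and binds DNA mostly together with a retinoid X receptor at paired half-sites of the form AGGTCA. Many other nuclear receptors bind the same half-site, singly or in pairs whose spacing and orientation differ between receptors. The homeodomain factors CRX and OTX2, which act in photoreceptors and bipolar cells, bind K50 sites such as TAATCC, whereas Q50 homeodomain factors bind sites such as TAATTA. AP-1 factors, dimers of the FOS and JUN families that respond to many extracellular signals and to stress, bind TGANTCA.

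Of the 1109 regions, 6 are printed to show the sequences behind the results on motifs and on double-sorted cells. They were taken from the regions with the widest gap between green cones and all other libraries. Capitals mark AGGTCA, read as TGACCT on the other strand, in the first pair and TGANTCA in the second pair, while the third pair holds neither AGGTCA nor TGANTCA nor TAATCC. Letters are from the plus strand of GRCm38 (mm10).
Iyd intron (chr10:3551282-3551482): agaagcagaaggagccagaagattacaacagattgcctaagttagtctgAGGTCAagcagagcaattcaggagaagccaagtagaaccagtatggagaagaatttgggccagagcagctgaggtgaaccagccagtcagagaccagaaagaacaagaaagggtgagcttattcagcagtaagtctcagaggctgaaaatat
Akr1d1 intergenic (chr6:37601083-37601283): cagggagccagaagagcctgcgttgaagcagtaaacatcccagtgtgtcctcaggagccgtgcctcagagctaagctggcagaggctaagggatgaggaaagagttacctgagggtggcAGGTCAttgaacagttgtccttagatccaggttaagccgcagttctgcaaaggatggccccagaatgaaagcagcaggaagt
Itga6 intron (chr2:71801726-71801926): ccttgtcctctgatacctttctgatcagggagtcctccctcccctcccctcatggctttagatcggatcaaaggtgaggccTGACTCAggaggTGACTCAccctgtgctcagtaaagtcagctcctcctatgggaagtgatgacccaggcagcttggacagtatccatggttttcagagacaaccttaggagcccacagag
Sall1 upstream (chr8:89299779-89299979): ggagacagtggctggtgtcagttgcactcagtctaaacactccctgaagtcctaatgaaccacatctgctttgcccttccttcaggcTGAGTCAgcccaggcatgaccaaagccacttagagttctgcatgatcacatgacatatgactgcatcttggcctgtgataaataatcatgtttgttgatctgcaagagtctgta
Tnik intron (chr3:28603723-28603923): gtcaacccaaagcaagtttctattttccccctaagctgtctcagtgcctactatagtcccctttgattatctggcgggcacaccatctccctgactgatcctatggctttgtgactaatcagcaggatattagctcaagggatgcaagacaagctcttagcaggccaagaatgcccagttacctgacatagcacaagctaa
Vgll4 intron (chr6:114943111-114943311): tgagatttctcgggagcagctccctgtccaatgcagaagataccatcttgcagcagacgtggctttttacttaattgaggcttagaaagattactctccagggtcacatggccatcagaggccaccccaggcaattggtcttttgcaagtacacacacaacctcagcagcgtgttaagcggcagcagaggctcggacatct

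Median accessibility at the 1109 regions was highest in both green cone libraries. The deposited values are read counts per region divided by a size factor of each library, called normalized counts here. Their median was 29.2 and 42.2 in green cone libraries 1 and 2, against 7.77 and 7.23 in blue cones and 2.34 and 2.71 in rods. In bipolar cells the median was 4.80 and 3.42 in pan-BCs, 2.99 and 2.93 in ON-BCs and 5.39 and 5.84 in OFF-BCs. Blue cones were thus the next highest population by median, and they also held the highest value outside green cones at 508 of the regions, against 250 for OFF-BCs, 142 for ON-BCs and 108 for rods, with pan-BCs the highest at the fewest.

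The separation was modest at most regions. On the log2(normalized count + 1) scale, the lower green cone library lay a median of 1.06 above the highest of the other 10 libraries, with quartiles of 0.64 and 1.61. The gap reached 2 at 132 regions and 3.95 at most, and at 40 regions another library was higher than the lower green cone library. The green cone peaks were also weak. The weaker of both −log10 q values had a median of 5.82, against 17.9 over the 37565 regions open in green cones whatever their state elsewhere. Green cone library 2, the shallowest of the 12 with 4176776 counted reads, was higher than library 1, with 7574103, at 911 of the 1109 regions. The median ratio of library 2 to library 1 was 1.41, against 1.03 over all green-open regions.

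**Figure D1:**
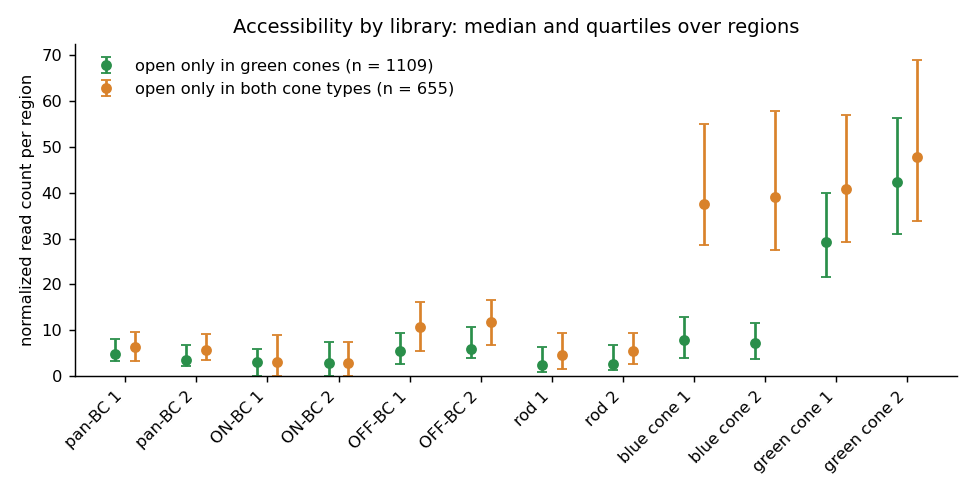
Normalized ATAC-seq counts per region in each of the 12 libraries, for the 1109 regions open only in green cones and the 655 open only in both cone types, with points at the median and bars from the lower to the upper quartile over regions. Green-only regions have medians of 29.2 and 42.2 in green cones and 7.77 and 7.23 in blue cones, where regions of both cone types are at 37.6 and 39.0.

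Near the threshold the choice was narrow. Just inside it lay a region near Rflna (chr5:125074148-125074348) whose −log10 q was 1.38 and 4.74 in the green cone libraries, with normalized counts of 16.1 and 28.2 there beside 7.77 and 1.45 in blue cones. Just outside it lay 2928 regions with a peak in 1 of the 2 green cone libraries and in no other library, 2050 of them in library 1 and 878 in library 2. A further 871 green-open regions were left out because exactly 1 library of another population had a peak, and blue cone library 2 was that library at 521 of them. These 521 regions had median normalized counts of 35.3 and 42.2 in green cones and 15.5 and 22.4 in blue cones.

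Markers were checked at promoters. At the Opn1mw promoter, normalized counts were 83.8 and 45.1 in green cones, 32.4 and 31.1 in blue cones and 1.56 and 0 in rods. At the promoter of Opn1sw, the blue cone opsin gene, green cones had 121 and 100, blue cones 242 and 221 and rods 10.9 and 6.10. Both double-sort libraries had a peak there. Both opsin promoters thus had signal in both cone populations. Opn1mw RNA was 41111, 50465 and 58221 normalized counts in blue cones and 491, 573 and 528 in rods. At the promoter of Gnat1, which encodes the rod transducin subunit, the green cone libraries also had 222 and 138, rods 792 and 748 and blue cones 2.59 and 1.45. Neither double-sort library had a peak at either Gnat1 promoter region. Peaks lay at 85% and 70% of the 20 promoter regions of a 15-gene rod list in the single-sort green cone libraries, and at 45% and 30% in the double-sort ones. For the 30 promoter regions of a 24-gene cone phototransduction list, these shares were 100% and 96.7%, and 76.7% and 93.3%. The rule itself leaves no rod peak at the 1109 regions, so the low rod values there do not bear on this rod marker signal, whose part in the results was not tested.

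Double-sorted green cones gave an independent look at the regions, as 2 lists of peaks that the rule had not used. A peak of double-sort library 3 covered 765 of the 1109 regions (69.0%), and a peak of library 4 covered 335 (30.2%). Both libraries had a peak at 286 regions (25.8%, 95% exact binomial interval 23.2 to 28.5), 1 of the 2 at 528 (47.6%) and neither at 295 (26.6%). Library 4 had fewer peaks in all, 29410 against 43221. These intervals, like those on sequence below, cover counting error only.

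The regions open in both cone types and in no other population, 655 in number, had double-sort peaks more often, at 80.9% in library 3, 53.7% in library 4 and 49.2% in both (interval 45.3 to 53.1). The 731 regions open only in blue cones had them at 19.0%, 2.60% and 1.23% (0.564 to 2.32). Over all 37565 green-open regions the shares were 84.1%, 72.3% and 66.6%. The 1109 regions thus lay between blue-only and shared cone regions in both double-sort libraries. Blue-only regions were chosen to have no peak in either single-sort green cone library, and the 1109 regions to have a peak in both. Their higher share than that of blue-only regions thus follows in part from the choice.

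The strength of the single-sort peak moved with the double-sort share. In the lowest class, with a weaker −log10 q below 4.1, 54.8% of the regions had a peak in library 3 and 18.4% in library 4. In the highest class, at 8.7 or more, the shares were 83.9% and 54.4%. All green-open regions of the same classes had 55.7% and 24.4% in the lowest and 90.8% and 85.7% in the highest. In library 3 the regions open only in green cones were thus close to all green-open regions in the lowest class and below them in the highest. In library 4 they were below them in both of these classes, more widely in the highest. The highest class has no upper limit, so strength is not matched within it. Over all classes the median weaker −log10 q was 5.82 for green-only and 17.9 for all green-open regions.

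**Figure D2:**
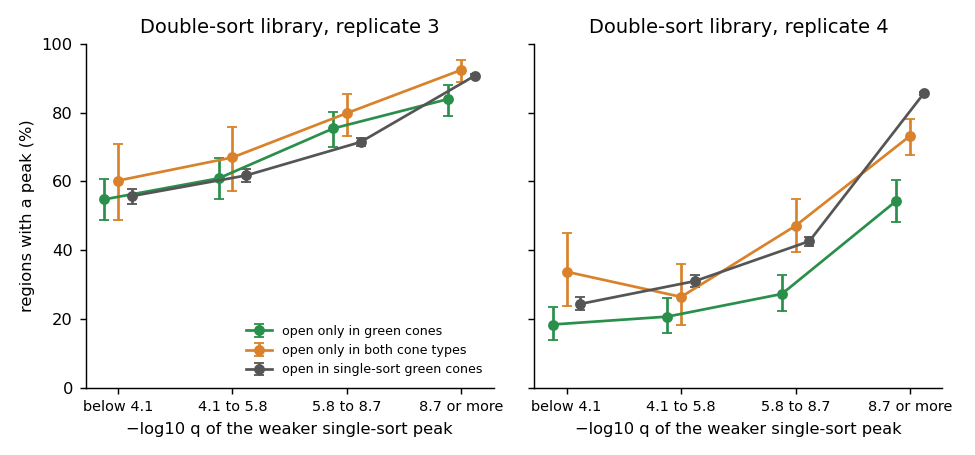
Percentage of regions with a peak in double-sort library 3 (left) or 4 (right), by class of the weaker single-sort −log10 q, for regions open only in green cones, those open only in both cone types and all regions open in single-sort green cones, with 95% exact binomial intervals. In library 4 the highest class reaches 54.4% for green-only regions and 85.7% for all green-open regions.

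The regions lay mostly away from promoters. Only 23 of the 1109 (2.07%) lay within a promoter, taken as the stretch from 1000 bp before to 100 bp after the start of a gene, against 14.9% of all regions and 57.3% of the 18233 regions open in all 6 populations. The share in promoters was also low in shared cone regions, at 3.05%, and in blue-only regions, at 5.06%. Introns held 56.2% of the 1109 regions and intergenic sequence 39.8%. The median distance to the nearest start site was 25774 bp, against 20505 bp for all regions. It was 25729 bp for shared cone regions and 30068 bp for blue-only regions. The median GC content of the 1109 regions, 49.8%, was close to that of all regions, 50.2%. Their median ratio of observed to expected CpG was lower, at 0.186 against 0.261. This ratio was 0.205 in shared cone regions and 0.219 in blue-only regions. Only 5 of the 1109 regions (0.451%, interval 0.147 to 1.05) were on the X chromosome, which held 2.27% of all regions and 0.458% of shared cone regions.

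Motif letters were counted on both strands of each 201 bp region. A match is a description of the sequence and not evidence that a factor binds there. The AP-1 letters TGANTCA were in 342 of the 1109 regions (30.8%, interval 28.1 to 33.7) and the nuclear receptor half-site AGGTCA in 349 (31.5%, 28.7 to 34.3). Both motifs were more frequent than in all regions, at 7.12% and 15.7%, or in all green-open regions, at 7.0% and 14.7%. The difference was also present outside promoters, where the AP-1 letters were in 31.1% of the green-only regions and 9.23% of the green-open ones, and the half-site in 31.9% and 18.6%.

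Green-only regions also differed in these shares from other cone regions. Of the regions open only in both cone types, 16.03% held the AP-1 letters and 24.3% the half-site, and of those open only in blue cones 3.56% and 16.1%. The K50 letters TAATCC, which CRX and OTX2 bind, ran the other way, with 27.1% of green-only regions, 40.0% of shared cone regions and 35.2% of blue-only regions. Outside promoters the K50 share of green-only regions, 27.3%, was close to that of all green-open regions, 28.6%. The Q50 letters TAATTA were in 4.51% of green-only regions, 14.4% of shared cone regions and 20.1% of blue-only regions. A CTCF motif lay in 1 of the 1109 regions (0.0902%), and was as rare in the other cone sets, at 0.153% of shared cone regions and 0.547% of blue-only regions, against 5.10% of all regions.

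**Figure D3:**
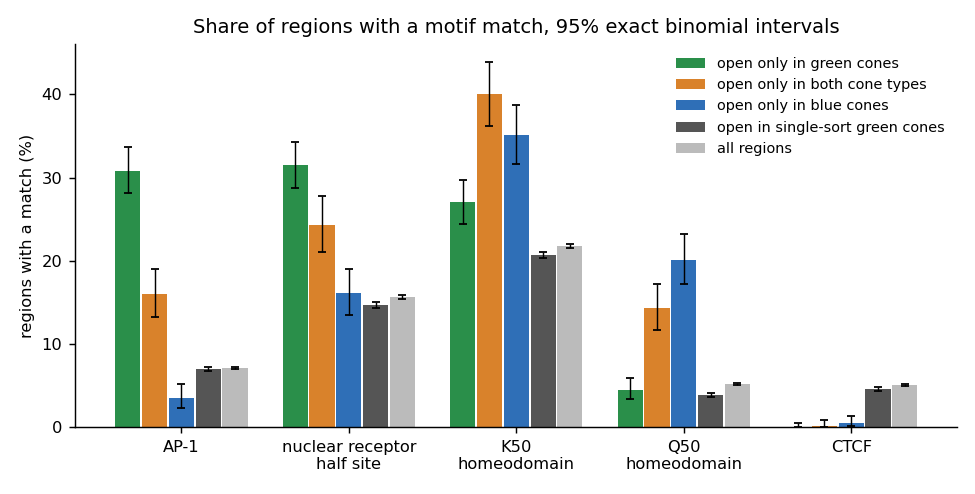
Percentage of regions that hold each of 5 motifs on either strand, by set of regions (bars, with 95% exact binomial intervals). The AP-1 share is 30.8% in green-only regions and 3.56% in blue-only regions, while the Q50 share is 4.51% and 20.1%.

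Most regions with either the AP-1 letters or the half-site did not hold both. The AP-1 letters without the half-site were in 246 regions, the half-site without AP-1 letters in 253, both in 96 and neither in 514. A half-site was in 28.1% of regions with the AP-1 letters and in 33.0% of those without, so neither motif excluded the other. Most AP-1 matches were of the classical kind with C or G in the middle, present in 27.1% of green-only regions and 4.88% of all regions. TGANTCA can overlap the MAF half-site TGCTGA, and 20 of the matches were preceded by TGC. Within 25 bp of the region centre lay 41.2% of the 413 AP-1 matches and 35.3% of the 405 half-sites, against 30.7% and 30.2% over all regions, whereas K50 matches were less central than in all regions, at 34.0% against 43.6%.

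A count of all 8-letter words gave words of both motifs the highest ratios. It used the same sequences as the motif shares, so it describes the same difference and is no separate support. Of the 28 words found in at least 50 of the regions, the 6 with the highest ratio to green-open regions all held TGACTCA or TGAGTCA, with ratios of 5.23 to 5.69. The next 3 held most or all of a half-site with an extended 5′ end. Among them TGAGGTCA, which reads TGACCTCA on the other strand and contains AGGTCA, was in 129 green-only regions (11.6%, interval 9.80 to 13.7), 4.58% of shared cone regions, 0.821% of blue-only regions and 2.0% of all regions. TGAGGTCA starts with TGA and ends with TCA, as the AP-1 letters do. TGATGTCA, at rank 12, does so too but holds no half-site. It was in 6.31% of green-only regions and 1.66% of green-open regions. Whether these words mark nuclear receptor sites was not tested. The word count was added after the half-site share had been seen.

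The AP-1 share differed between the green cone libraries. Regions with a peak only in green cone library 2 and in no other library held the AP-1 letters at 47.4% (interval 44.0 to 50.7), whereas those with a peak only in library 1 held them at 8.88% (7.68 to 10.2). With the rule applied to library 2 alone, 38.1% of regions held AP-1 letters, and with library 1 alone 16.6%. Within the 1109 regions, those with the AP-1 letters had median normalized counts of 26.1 and 47.9 in libraries 1 and 2 and a median ratio of 1.76, and those without had 29.97 and 39.4 and a ratio of 1.28. The half-site shares of the same regions were close, at 24.5% (22.6 to 26.4) for library 1 only and 22.3% (19.6 to 25.2) for library 2 only. The longer word TGAGGTCA was not even. It was in 4.59% (3.72 to 5.58) of regions for library 1 only and 8.20% (6.47 to 10.2) for library 2 only.

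The double-sort libraries separated the motifs again. Regions with the AP-1 letters had a peak in double-sort library 3 as often as those without, at 69.9% and 68.6%, but in library 4 at 18.1% against 35.6%. Of the 286 regions with a peak in both double-sort libraries, 19.2% (interval 14.8 to 24.3) held the AP-1 letters, and of the 295 with a peak in neither, 32.5% (27.2 to 38.2), while the 528 with a peak in 1 of the 2 had the highest share, 36.2% (32.1 to 40.4). The half-site went the opposite way, with 39.5% (33.8 to 45.4) of regions in both double-sort libraries and 25.4% (20.6 to 30.8) of those in neither. Over all green-open regions with a peak in both or in neither, the half-site shares were 13.6% and 16.1% and the AP-1 shares 5.58% and 9.57%. The cause of the differences between green cone libraries was not tested.

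**Figure D4:**
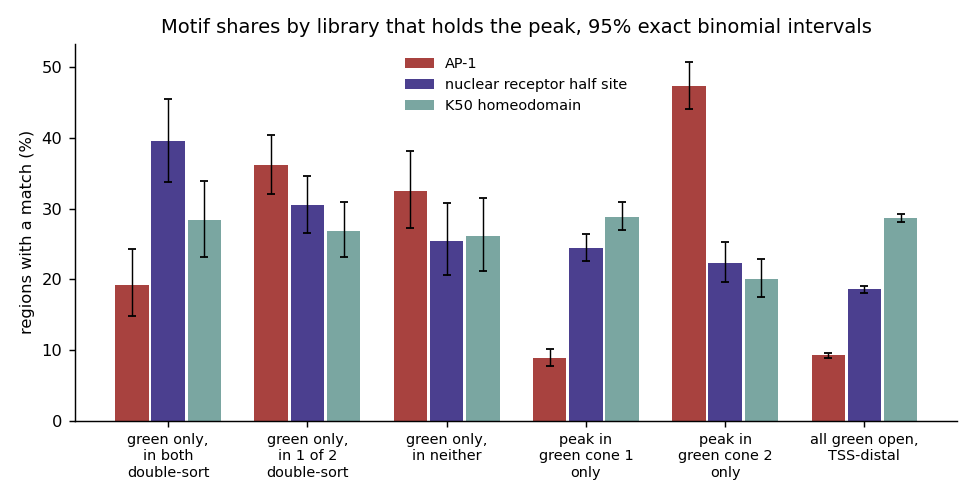
Percentage of regions that hold the AP-1, half-site or K50 letters (bars, with 95% exact binomial intervals), for green-only regions by their double-sort peaks, for regions with a peak in only 1 single-sort green cone library and in no other population, and for all green-open regions outside promoters (TSS-distal, TSS being the transcription start site). AP-1 is at 47.4% where only library 2 had a peak and 8.88% where only library 1 did, whereas the half-site is at 22.3% and 24.5%.

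Half-sites also occurred in pairs, as the sequences below show. A direct repeat was counted as AGGTCA next to a further AGG, on the same strand, either before or after it, with 0 to 8 bases between the half-sites. A spacing of 4, the arrangement known for thyroid hormone receptors and some other receptors that pair with retinoid X receptors, was the most frequent of the 9 spacings in green-only regions, with 45 regions (4.06%, interval 2.97 to 5.39). Spacings of 2, 3 and 5 were in 2.34%, 2.25% and 1.98%. In shared cone regions a spacing of 2 was the most frequent, at 3.05%. Over all regions a spacing of 4 was in 0.998%, close to spacings of 1 and 2 at 0.988% and 0.943%. The share was 2.14% in shared cone regions and 0.821% in blue-only regions. It was 7.34% (4.60 to 11.0) in the 286 regions with a peak in both double-sort libraries and 1.36% (0.371 to 3.44) in the 295 with a peak in neither. In regions with a peak in a single green cone library and in no other, it was 2.44% (1.82 to 3.20) for library 1. For library 2 it was 1.25% (0.627 to 2.23). Regions with this repeat had a peak in library 3 at 86.7% and in library 4 at 51.1%, against 68.2% and 29.3% of the regions without it. The repeat search was added after the half-site share had been seen.

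**Figure D5:**
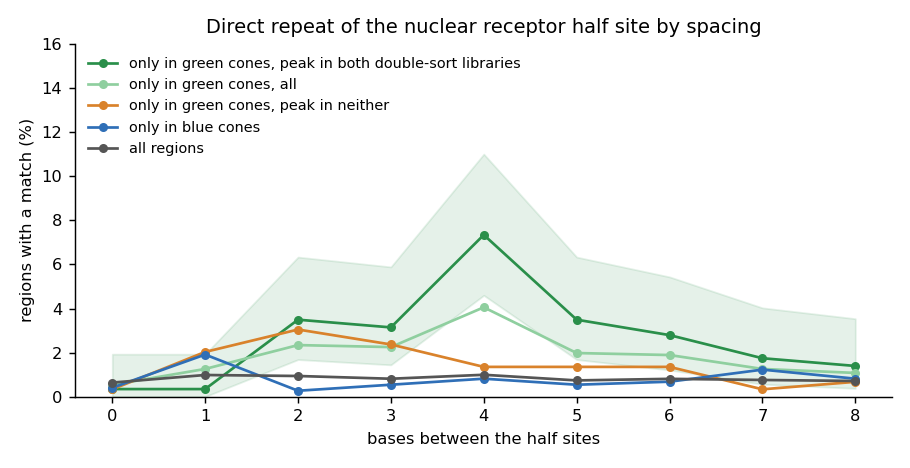
Percentage of regions with a direct repeat of the half-site at each spacing from 0 to 8 bases, for green-only regions (all, with a peak in both double-sort libraries and in neither), blue-only regions and all regions; the shaded band is the 95% exact binomial interval of green-only regions with a peak in both double-sort libraries. A spacing of 4 is the highest in green-only regions at 4.06%, and reaches 7.34% in those with a peak in both double-sort libraries.

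Of the 1109 regions, 3 held 2 complete half-sites spaced by 4 bases, near Socs1, Fam53a and Kcng1, and all 3 had a peak in both double-sort libraries. In all 110715 regions there were 28 (0.0253%). With the fourth letter of either half-site free to differ, 9 green-only regions held such a repeat (0.812%, interval 0.372 to 1.53), against 4 of the 655 shared cone regions (0.611%, 0.167 to 1.56), 0.152% of all regions and 0 of the 731 blue-only regions, which allows a share of up to 0.503%. Peaks lay at 7 of the 9 in both double-sort libraries and at the other two in 1 of them. Of the 9, 8 are printed below because they carry the paired arrangement, with both half-sites in capitals, 10 bases on each side and the strand on which they read as AGGTCA (GRCm38). The Kcng1 region holds a tandem run of half-sites, so that 4 such repeats overlap.
Socs1 (chr16:10761387-10761422, minus strand): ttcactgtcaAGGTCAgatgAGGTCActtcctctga
Fam53a (chr5:33535515-33535550, minus strand): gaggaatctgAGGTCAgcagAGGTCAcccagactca
Kcng1 (chr2:168347215-168347280, minus strand): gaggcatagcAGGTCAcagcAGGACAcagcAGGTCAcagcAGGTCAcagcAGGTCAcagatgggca
Acoxl (chr2:127908516-127908551, minus strand): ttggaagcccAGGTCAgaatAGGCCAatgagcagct
Begain (chr12:109044420-109044455, minus strand): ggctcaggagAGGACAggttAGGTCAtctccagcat
Gm4791 (chr9:47176056-47176091, minus strand): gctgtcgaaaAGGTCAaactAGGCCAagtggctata
Slc46a1 (chr11:78463839-78463874, minus strand): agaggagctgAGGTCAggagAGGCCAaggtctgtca
Gm11747 (chr11:118454464-118454499, minus strand): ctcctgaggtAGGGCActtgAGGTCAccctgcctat

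Socs1 encodes an inhibitor of cytokine signalling. Its region, 24.2 kb from the start site, had 66.1 and 49.3 normalized counts in green cones, 7.77 and 7.23 in blue cones, 8.57 and 6.78 in rods, 9.60 and 6.84 in pan-BCs, 0 and 0 in ON-BCs and 5.39 and 5.84 in OFF-BCs. Both green cone values lay well above the other 10. The tandem repeat 65.7 kb from Kcng1, which encodes a potassium channel subunit, had 90.7 and 53.5 in green cones, 18.1 and 17.3 in blue cones, 0.779 and 4.07 in rods and 2.85 to 16.2 in bipolar cells. Among the 9 the gap was smallest in the intron of Acoxl, an acyl-CoA oxidase-like gene, at 0.35, where green cones had 26.9 and 46.5 and ON-BC library 1 had 20.9.

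Of the 10 regions with the widest gap between green cones and the other 10 libraries, all had a peak in both double-sort libraries. The widest of all, 3.95 on the log2 scale, was in an intron of Iyd (the first sequence above), which encodes the deiodinase that recovers iodide from iodotyrosines in the thyroid. It had 64.5 and 60.6 in green cones, 0 and 1.45 in blue cones, 0.779 and 0 in rods, 0 and 0 in pan-BCs, 2.99 and 0 in ON-BCs and 0 and 0 in OFF-BCs. These values came from 84 and 43 reads in the green cone libraries. The double-sort peaks had fold enrichments of 8.54 and 8.33.

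The intron of Tnik, a kinase gene, held the region with the highest enrichment in double-sorted cells, 20.3 and 14.5 in libraries 3 and 4. Its nearest start site was that of Slc2a2, a glucose transporter gene, 94.1 kb away. It had 162 and 172 in green cones, 10.4 and 7.95 in blue cones, 1.56 and 0 in rods, 1.60 and 2.85 in pan-BCs, 0 and 5.86 in ON-BCs and 13.5 and 10.7 in OFF-BCs. The Vgll4 intron, in a gene for a cofactor of TEAD transcription factors, had 134 and 199 in green cones, 13.0 and 13.7 in blue cones, 0 and 2.71 in rods and 2.69 to 11.9 in bipolar cells. Both regions were strong in all 4 green cone libraries and held none of the AP-1, half-site and K50 letters.

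The printed regions with AP-1 letters were less even across the green cone libraries. The Itga6 intron, in the gene of a laminin receptor subunit, holds 2 AP-1 matches and had 70.7 and 141 in green cones, 6.48 and 4.34 in blue cones, 0 and 1.36 in rods and 0 to 5.70 in bipolar cells. The region 256 kb from Sall1, which encodes a zinc finger transcription factor, had 34.6 and 101.4 in green cones, 2.59 and 2.89 in blue cones, 0 and 0 in rods and 0 to 2.69 in bipolar cells. In both, green cone library 2 was the higher by far, and double-sort fold enrichments were 15.8 and 9.26 for Itga6 and 12.2 and 6.00 for Sall1. The region near Akr1d1, the gene of a steroid reductase, holds a half-site. It had 79.1 and 74.6 in green cones, 0 and 7.23 in blue cones, 3.12 and 0 in rods and 0 to 8.08 in bipolar cells. Its even values do not stand for regions with a half-site. The median ratio of library 2 to library 1 was 1.40 in green-only regions with the half-site and 1.41 in those without.

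Ranked by the weaker double-sort enrichment, the first 10 regions had values of 10.5 to 14.5. Of these, 6 held a half-site and 0 the AP-1 letters, whereas among the 10 with the widest gap 4 held a half-site and 3 the AP-1 letters. The 2 lists share 4 regions. The second list also includes introns of Maml2, a coactivator of Notch signalling, with 65.3 and 118 in green cones and 0 and 2.89 in blue cones, of St6galnac3, a sialyltransferase gene, with 76.8 and 69.0 against 6.48 and 8.67, and of the long non-coding RNA Pvt1, with 69.9 and 101.4 against 10.4 and 7.23. A region 159 kb from Gm4791 had a gap of only 0.05, with 47.6 and 28.2 in green cones and 27.3 in OFF-BC library 2, although its double-sort enrichments were 16.8 and 12.7.

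The 1109 regions had 952 nearest genes, of which 828 had 1 region and 124 at least 2. The most were at Mir6393, with 6 of the 15 regions nearest to it, followed by Ntm, a neuronal adhesion molecule, with 5 of 133, Vgll4 with 5 of 24, B930025P03Rik with 4 of 23 and the zinc finger gene Jazf1 with 4 of 40. None of the 5 Vgll4 regions held the AP-1 letters or the half-site. Another of the regions lay within 10 kb at 99 of them (8.93%).

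At known cone phototransduction and photoreceptor factor genes, the share of green-only regions was close to that over all regions. Of 24 cone phototransduction genes, Slc24a2 and Rgs9 had 1 each, which made 0.952% of the 210 regions nearest to the list, close to the 1.00% of all regions. Of 20 photoreceptor transcription factor genes, Otx2, Prdm1, Sall3 and Thrb had 1 each (1.33% of 301). Lists of 19 dorsoventral patterning, 15 rod and 17 bipolar genes had 0, of 185, 110 and 158 nearest regions. Among lists of other retinal cells, Hes1 of the Müller glia list had 2, and Chat (amacrine), Kdr (endothelial), Cspg4 (pericyte), Sall1 (microglia) and Mitf (pigment epithelium) had 1 each, while astrocyte, ganglion cell and horizontal cell lists had 0. The shares of these lists ran from 0% to 2.50%, on 0 to 4 regions each.

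The Thrb region (chr14:18020311-18020511) lay in an intron 38.8 kb from the start site and held a half-site and a K50 match. It had 22.3 and 31.0 in green cones, 3.89 and 2.17 in blue cones, 1.56 and 0.678 in rods, 4.80 and 1.14 in pan-BCs, 5.97 and 0 in ON-BCs and 0 and 5.84 in OFF-BCs. A double-sort peak was present in library 3, with a fold enrichment of 3.62, and not in library 4. The intron of Slc24a2, the cone Na/Ca-K exchanger, had 16.1 and 39.4 in green cones against 7.77 and 4.34 in blue cones, held 2 AP-1 matches and had no double-sort peak. The intron of Rgs9, which shortens the light response, had 19.2 and 31.0 against 6.48 and 11.6, with a peak in both double-sort libraries. The Cspg4 intron also held 2 AP-1 matches and had 23.1 and 56.3 against 5.18 and 1.45.

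RNA levels of the nearest genes were compared between blue cones and rods and between blue cones and pan-BCs, with 3 libraries each. Blue cones were the only cones with RNA-seq here, and the regions are closed in them, so these values describe the genes in cones that lack the open region. Of the 952 nearest genes, 875 had a row and 634 passed the filter on low values, which made them the nearest genes of 746 regions. Both comparisons share the blue cone libraries and were tested with limma treat at a log2 fold change of 1 with Benjamini-Hochberg adjustment over the 14024 genes tested, at a threshold of 0.05.

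Of the 634 genes, 128 (20.2%) were higher in blue cones than in rods, where 11.3% of all genes tested were, and 28 (4.42%) were lower, where 4.63% were. In either direction 15.9% of all genes were called. The median log2 change was 0.24, against 0.00 over all genes tested. Genes nearest to shared cone regions were higher in 32.1% and lower in 5.18%, and those nearest to blue-only regions in 29.3% and 5.76%. The share of genes higher in blue cones was thus above the background for green-only regions and lower than for regions open in the blue cones themselves.

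Against pan-BCs, 136 of the 634 genes (21.5%) were higher in blue cones, where 13.7% of all genes were, and 145 (22.9%) were lower, close to the 22.7% of all genes. In either direction 36.3% of all genes were called. Of the genes nearest to blue-only regions 20.3% were higher and of those nearest to shared cone regions 27.98%, so the order of the sets was not that found against rods. The median change over the 634 genes was 0.05, against −0.16 over all genes. Microglia genes moved with both comparisons. Of 11 tested microglia markers, 5 were higher in blue cones than in rods and 8 higher than in pan-BCs, with 0 lower, and the sum of the 15-gene list was 772 to 1847 normalized counts in blue cones, 284 to 364 in rods and 313 to 365 in pan-BCs. Other lists moved too. Against rods, 6 of 17 bipolar genes were higher in blue cones and 1 lower, with list sums of 28344 to 32871 and 2004 to 2916. Of 18 Müller glia genes 2 were higher and 0 lower, with sums of 13996 to 17401 and 2314 to 3754. Against pan-BCs, 16 bipolar genes were lower and 0 higher, and 5 Müller glia genes were lower and 1 higher. The part of these lists in the result was not tested.

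Of the genes nearest to green-only regions, Wwc1, Eya1 and Cckbr had the largest differences from rods. Wwc1, a scaffold of Hippo signalling, had 5463, 5625 and 5764 normalized RNA counts in blue cones, 15.5, 33.8 and 17.3 in rods and 25.5, 21.2 and 31.8 in pan-BCs. Its log2 difference from rods was 8.00 (SE 0.67, adjusted p = 1.68e-07, limma treat with Benjamini-Hochberg adjustment). Eya1, a transcriptional coactivator and phosphatase, had 2848, 2722 and 2417 in blue cones against 9.70, 14.3 and 18.4 in rods. The cholecystokinin receptor Cckbr had 4496, 5382 and 5983 against 35.9, 26.6 and 30.3. These 3 genes were picked by the size of this difference, so the lack of overlap between their groups is no separate result. Map6, which stabilises microtubules, and Acbd6, which binds acyl-CoA, followed with log2 differences of 7.36 and 7.30, although Map6 was not called against pan-BCs, with a log2 difference of 1.03.

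Genes lower in blue cones than in rods included Acoxl, with 14.3, 7.59 and 2.96 in blue cones and 212, 157 and 159 in rods (log2 difference −4.45, SE 0.66), and the glutamate receptor scaffold Grip1, with 36.1, 37.9 and 60.7 against 538, 429 and 405 (−3.35, SE 0.23). The others of the first 5 were 4921511C10Rik (−4.44), 2900060B14Rik (−4.37) and Kctd4 (−3.87). Acoxl also carries the direct repeat printed above.

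Against pan-BCs the highest were Moxd1, a monooxygenase gene with 2051, 2470 and 2713 in blue cones and 0 in all 3 pan-BC libraries, and the unconventional myosin Myo7a, with 694, 489 and 479 against 1.06, 0 and 0. The other bipolar libraries were not near 0 for Myo7a, with 46.2 to 67.1 in ON-BCs and 53.6 to 94.9 in OFF-BCs. The spindle checkpoint kinase Bub1b had 6711, 7652 and 6864 against 37.2, 15.1 and 36.7, and the transcriptional repressor Prdm1, which acts in early photoreceptors, had 2090, 1876 and 2019 against 23.4, 7.06 and 39.2. The lowest was the imprinted non-coding RNA Meg3, with 46.6, 43.3 and 18.5 in blue cones and 11530, 11854 and 13056 in pan-BCs. The ion channel gene Asic2, Lrrc3b, Gfod1 and the synaptic adhesion gene Sdk1 had log2 differences of −8.22, −8.00, −7.91 and −7.70.

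Thrb RNA was present in both photoreceptor types, with 11923, 10299 and 9546 in blue cones, 6276, 5790 and 6526 in rods and 391, 349 and 403 in pan-BCs. The difference between blue cones and rods, 0.77 on the log2 scale (SE 0.16), did not pass the threshold (adjusted p = 1, limma treat with Benjamini-Hochberg adjustment), and that from pan-BCs, 4.79 (SE 0.16), did. Slc24a2 and the zinc finger gene Sall3 were higher in blue cones than in rods by 7.0 and 7.08, with 22.3, 24.6 and 22.7 counts of Slc24a2 in rods and 3637, 2984 and 2704 in blue cones. Maml2 was higher than in rods by 3.75 and not called against pan-BCs, while Hlf, a bZIP transcription factor gene, had 363, 349 and 417 in blue cones, 246, 222 and 253 in rods and 6544, 6960 and 6650 in pan-BCs. Iyd, Akr1d1, Slc2a2, Sall1 and Cd300a, all nearest to regions of 1 or both of these rankings, were below the filter on low RNA values.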

How the data were processed

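ATAC-seq libraries (2 per population) and RNA-seq libraries (3 per population) were grouped by the submitters' labels. The deposited region and gene tables hold signal, which are read counts that the authors divided by size factors; all 1212862 and 230384 values above 0 came out within 0.01 of a whole read. The authors called peaks per library with MACS2, and the deposited lists give each peak's fold enrichment ratio and −log10 q. The submitters' processing notes name Bowtie2, STAR, featureCounts and mm10. Depth was 4176776 to 12345845 counted reads for ATAC-seq and 12329548 to 26266746 for RNA-seq.

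The regions and gene lists were chosen with earlier results of these data known. Midpoints were intersected with peaks, nearest RefSeq start sites and sequence were read from GRCm38, and shares carry exact binomial 95% intervals. RNA was tested with limma 3.58.1 (treat, log2(value + 1), R 4.3.3) over all 15 libraries and over genes passing edgeR 4.0.16 filterByExpr, with edgeR and DESeq2 1.42.0 on recovered reads as alternatives. In simulated data with blue cones against rods, the limma fit was tested on known fold changes. The study's methods call the libraries of a group biological replicates; the labels name no animals.

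Named regions were the 10 with the widest gap and the 10 with the highest weaker double-sort enrichment, up to 3 per list, the 5 genes with most regions, and the 5 called genes with the largest change in each direction. The direct repeats were named after their values had been seen. A few items are not reported here. Equal replicate numbers did not pair the RNA-seq libraries: deviations of same-numbered libraries correlated at −0.08 to 0.08.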

Additional observations from a re-analysis of the deposited data

How the results depend on the processing

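The number of regions open only in green cones depended most on the green cone peaks. It was 684 with green cone peaks of −log10 q of at least 5, 1987 without green cone replicate 1 and 3159 without green cone replicate 2, and it was 934 to 1110 when peaks had to overlap by 1 or 100 bp or when closed meant no peak within 500 bp. The share with a peak in both double-sort libraries, 25.8%, was 33.6% at −log10 q of at least 5 and 12.1% to 14.8% without 1 green cone replicate, and it was 69.0% in double-sort library 3 alone and 30.2% in library 4 alone. The AP-1 share was 33.8% at −log10 q of at least 5 and 16.6% to 38.1% without 1 green cone replicate, and the half-site share 26.9% to 27.4%. The promoter share was 0.857% when closed meant no peak within 500 bp and 2.11% to 4.18% without 1 green cone replicate. Of the 156 nearest genes called between blue cones and rods, the count was 102 at −log10 q of at least 5 and 146 to 159 without 1 RNA-seq library. It was 264 without green cone replicate 1 and 385 without replicate 2, where more regions bring more genes. Of the 281 called against pan-BCs, these counts were 188, 268 to 279, 457 and 702. Pseudocounts of 0.5 and 4, no filter, TMM scaling, edgeR and DESeq2 gave 148 to 179 and 272 to 318, and start sites within 50 kb gave 113 and 196. With a replicate block the counts were 152 and 283, and no named gene changed its call under the block. Of 936 alternative fits of named genes, 926 kept direction and call, 9 lost the call, 1 gained it and 0 reversed. Calls were lost by Hes1 against pan-BCs in 7 fits, Bub1b against rods without blue cone replicate 2 and Itga6 against pan-BCs without blue cone replicate 1, and gained by Myo7a against rods with edgeR. The cause of these shifts was not tested.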

Other observations

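The AP-1 letters were more frequent where the green cone peaks were stronger in regions open only in green cones, and without a steady trend over all green-open regions. By class of the weaker −log10 q, from the weakest to the strongest, the AP-1 share of the green-only regions was 24.3%, 30.5%, 32.7% and 35.8%, and that of all green-open regions was 8.83%, 9.71%, 8.08% and 6.38%. Of the 8 genes with at least 4 green-only regions, 2 had the AP-1 letters or the half-site in most of them. Near Sox11, a transcription factor gene of neuronal development, 3 of 4 regions held the AP-1 letters, and near B930025P03Rik 3 of 4 held the half-site and 0 the AP-1 letters. These genes were picked out after their values had been seen, and no test was run on them.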
